A study of Mus musculus with 9 samples.

Results

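The phase II conjugation enzymes described here are the glutathione S-transferases (GSTs), the UDP-glucuronosyltransferases (UGTs) and the sulfotransferases (SULTs). They were taken from the array annotation by symbol: a Gst symbol of the alpha, kappa, mu, omega, pi, theta or zeta class, or a symbol that begins with Mgst, Ugt1, Ugt2 or Sult. This gave 36 probes in 33 entries, of 17302 probes with a symbol in 15674 entries. The rule by symbol uses no measured value, but it was chosen with earlier results of these data known.

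The RNA came from the jejunum, the middle segment of the small intestine, and was read on 9 single-colour Applied Biosystems arrays by chemiluminescence. Each array held RNA of 1 animal, a male OF1 mouse (an outbred stock) 7 weeks old, from generation 3 of a feeding trial with 12 h of light and 12 h of dark per day. Feed B was given to mice 7, 8 and 10, feed K to mice 1, 3 and 4, and feed G to mice 4, 8 and 11, and the mouse numbers do not link animals between feeds. The authors state that the trial addressed a custom maize diet fed ad libitum, and that food was withheld for 3 h before sampling. The meaning of the feed letters is not given in the sources used here, and none of the feeds serves as a control below.

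Conjugation makes foreign compounds and endogenous hormones, bile pigments and lipid peroxidation products more soluble and ready for export. GSTs attach glutathione to electrophilic centres, UGTs transfer glucuronic acid from UDP-glucuronic acid, and SULTs transfer sulfate from the donor PAPS. The small intestine meets food-borne compounds first, and its absorptive cells, the enterocytes, carry members of all these families. Several of the genes lie in tandem clusters of close paralogs, and a probe may bind the transcript of a paralog.

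In the GRCm38.p6 assembly, 65 protein-coding genes belong to these families. Member probes reached 41 of them, and 14 were reached by no probe under any symbol. The mu class forms a cluster of 7 genes at chr3:107895854-108045179, the alpha genes Gsta4, Gsta1 and Gsta2 lie at chr9:78191966-78347192, and the theta class of 4 genes lies at chr10:75774117-75837419. The UGT2 genes share chr5:86889770-87591611 with Sult1b1, Sult1d1 and Sult1e1. By accession, the entry that the files call Sult1a2 is the gene now named Sult1c1, and the entry that the files call Sult1c1 is now Sult1c2; the names of the files are kept below. A single probe reads Gsta1 and Gsta2 together.

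Another single probe carries 8 Ugt1a symbols and is called the Ugt1a entry. The Ugt1a isoforms have separate promoters and first exons but share the last exons of 1 locus, at chr1:88055411-88220002, so the signal cannot be divided among them. To show the separate promoters behind this single signal, 60 bases of 4 of them follow (RefSeq starts, GRCm38.p6, plus strand), with the motif GTTAAT of the epithelial factor HNF1 or its reverse complement in capitals.
Ugt1a1 promoter, chr1:88211891-88211950: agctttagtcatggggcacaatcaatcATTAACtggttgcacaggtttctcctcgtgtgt
Ugt1a6a promoter, chr1:88134732-88134791: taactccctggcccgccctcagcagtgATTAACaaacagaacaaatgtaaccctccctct
Ugt1a9 promoter, chr1:88070661-88070720: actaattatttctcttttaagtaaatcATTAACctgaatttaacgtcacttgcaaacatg
Ugt1a10 promoter, chr1:88055313-88055372: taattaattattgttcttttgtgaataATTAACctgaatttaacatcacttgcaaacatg
Counted from the respective start, the motif began at -41, -50, -91 and -71, and Ugt1a10 held a further match at -100. On either strand of the 250 bases before the start, it was found for 7 of the 37 member genes with a promoter entry (18.9%) and for 7.49% of 27025 genes. Besides these Ugt1a promoters, the matches were in Gsta3, Sult1a1 and Sult1d1. Most of the matches thus come from a single locus, read by a single probe, and are not separate counts. The windows of Ugt1a9 and Ugt1a10 are nearly alike after the motif. Ugt1a2, Ugt1a5 and Ugt1a7c held no match. The member share was not tested against that of all genes. A match is a description of letters and not a binding site.

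Before the members, the tissue label was checked. All 8 enterocyte markers with a probe were detected on all 9 arrays, whereas 4 of 7 exocrine pancreas markers were detected on none. Markers of the distal small intestine differed between mice, but not all alike. The log2 signal of Fabp6, the ileal bile acid binding protein, was 15.81 and 17.84 in mice 7 and 10 of feed B. It was 19.51 in mouse 11 of feed G, and between 4.67 and 12.19 in the other 6 mice. Slc10a2 read 12.05 in mouse 10 of feed B and 12.66 in mouse 11 of feed G, but 9.46 in mouse 7 of feed B. Slc51a was detected on all 9 arrays and lay between 13.31 and 14.50. It read 14.35 in mouse 8 of feed B, where Fabp6 was lowest. Fgf15 was detected on 1 array only, of feed G. In these tissue pieces, fewer cells of a type and less RNA per cell cannot be told apart. None of the tested markers of other cell types (goblet, Paneth, muscle, fat, immune, endothelial and enteroendocrine cells, crypt, colon, liver) had an unadjusted F test p below 0.05 in limma. Among the 8 enterocyte markers, 1 was below that threshold, Slc5a1, and it did not pass after adjustment. Slc5a1 read 15.39 ± 0.31 on feed B, 16.53 ± 0.06 on feed K and 16.34 ± 0.53 on feed G (SD, n = 3 mice each). All B mice lay below all K and G mice. Over the 8 enterocyte markers the median log2 difference was 0.34 for K minus B, 0.18 for G minus B and -0.24 for G minus K. Over all genes tested these medians were 0.05, 0.06 and -0.01. Vil1 read 17.77 ± 0.13 on feed B, 18.10 ± 0.09 on feed K and 17.80 ± 0.13 on feed G, with all K mice above all others. Whether these differences bear on the members was not tested. The share of detected probes was 33.7% to 48.1% per array and was lowest for mice 7 and 8 of feed B. The number of arrays limits the precision throughout.

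Most members were readily measured in the jejunum. The scanner software reports a signal-to-noise ratio for each spot, and spots that reached 3 counted as detected. Of the 33 entries, 22 were detected on all 9 arrays (66.7%), compared with 37.6% of all entries, and 24 on at least 5 arrays (72.7%, compared with 54.6%). The median ratio over the spots of the 36 probes was 22.7, and over all probes with a symbol it was 3.96.

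**Figure D1:**
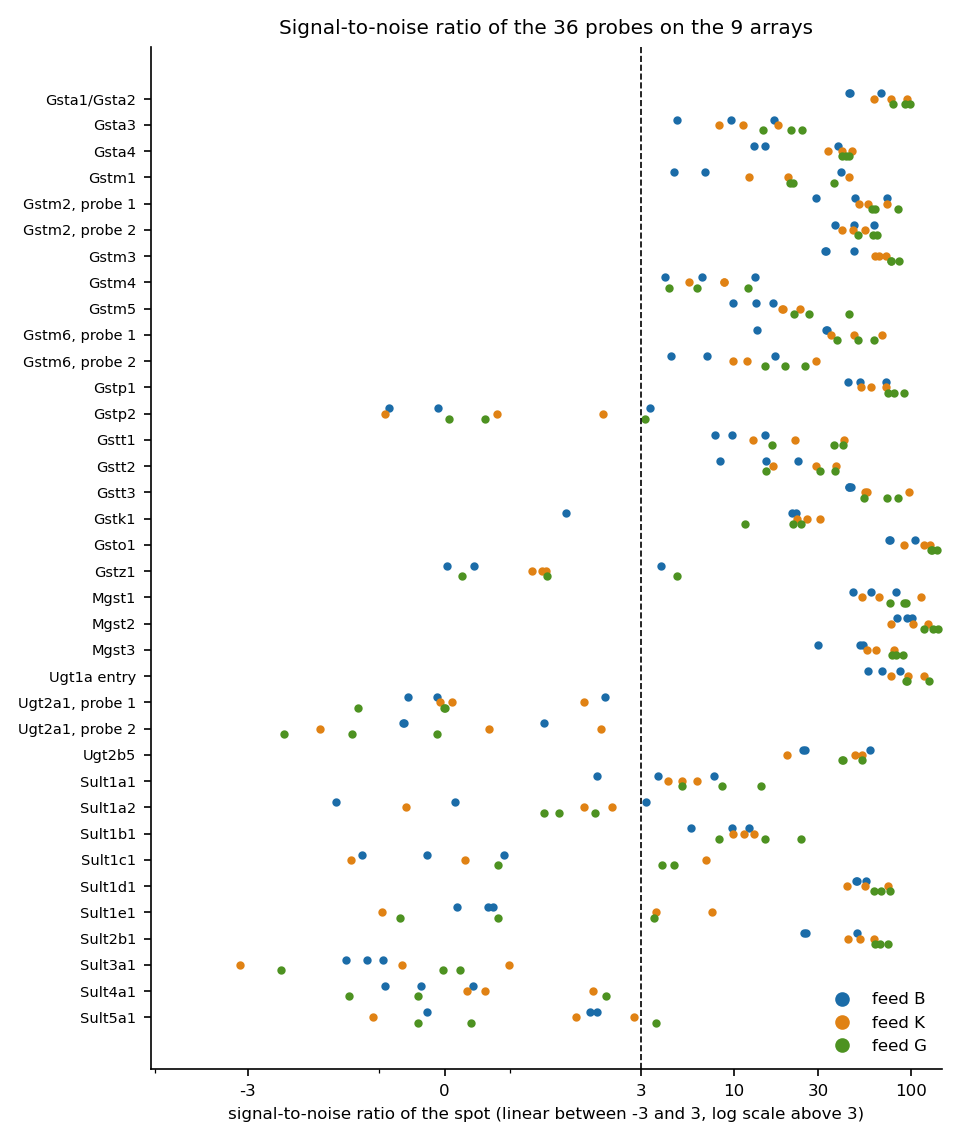
Signal-to-noise ratio of each of the 36 probes (rows) on the 9 arrays (points, coloured by feed), on an axis that is linear between -3 and 3 and logarithmic above; the dashed line marks the ratio of 3 taken as detected. Most GST, MGST, Ugt1a and Ugt2b5 spots lie right of the line, and most spots of 6 of the 10 sulfotransferases, Gstp2, Gstz1 and Ugt2a1 lie left of it.

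Among the GSTs, all 3 alpha, all 6 mu and all 3 theta entries were detected on all 9 arrays, as were Gstp1 and Gsto1. The microsomal enzymes Mgst1, Mgst2 and Mgst3 were also detected on all 9, with ratios between 29.8 and 142. They are membrane proteins that act on lipid peroxides with glutathione and, for Mgst2, make leukotriene C4. Gstk1, the kappa enzyme of mitochondria and peroxisomes, was detected on 8. On the array of mouse 8 of feed B its spot had the highest deposited signal of the 9, 10082 intensity units, but a ratio of 1.85. Gstz1, which also serves as maleylacetoacetate isomerase in tyrosine breakdown, and the pi enzyme Gstp2 were each detected on 2 arrays only.

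Among the UGTs, the Ugt1a entry had ratios between 57.1 and 127 and Ugt2b5 between 19.9 and 58.3. Ugt2a1, known as an olfactory enzyme, was detected by neither of its probes on any array, with ratios of at most 2.45.

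The SULTs were divided. Sult1b1, which acts on thyroid hormones and small phenols, Sult1d1, which acts on catecholamines, and the cholesterol sulfotransferase Sult2b1 were detected on all 9 arrays, and the phenol sulfotransferase Sult1a1 on 8. The oestrogen sulfotransferase Sult1e1 was detected on 2 arrays of feed K and 1 of feed G, and Sult1c1 on 1 of feed K and 2 of feed G. Sult1a2 and Sult5a1 were detected on 1 array each, and Sult3a1 and the brain enzyme Sult4a1 on none.

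The number of entries detected per array was 22 to 26 on feed B, 24 to 26 on feed K and 24 to 28 on feed G. These ranges overlap, and an exact permutation test of the F statistic over the 280 divisions of the 9 mice gave p = 0.607. The median ratio over the 36 probes was 11.0, 13.2 and 22.2 for mice 7, 8 and 10 of feed B, 19.4 to 39.3 on feed K and 25.3 to 38.8 on feed G. Mice 7 and 8 of feed B were the lowest, and mouse 10 lay within the range of feed K. Over all probes with a symbol the same mice were the lowest, with medians of 2.08 to 4.38 on feed B, 3.36 to 6.15 on feed K and 4.86 to 6.14 on feed G.

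Levels are given below as log2 of the quantile normalized signal, which can be compared between mice for 1 probe but not between probes. The spread is the SD over the 9 mice. For the 22 entries detected on all arrays the median SD was 0.36, and for all 5887 such genes it was 0.29. The whole range over the 9 mice was at most 2-fold for 11 of the 22 (50.0%) and for 57.9% of all such genes. The classes differed in this respect among these 22 entries. The median SD was 0.66 for the alpha class and 0.53 for the mu class, but 0.36 for theta and 0.27 for the microsomal enzymes. It was 0.25 for the sulfotransferases, of which only 3 of 10 were detected on all arrays. Sult1a1, detected on 8 arrays and so left out, had an SD of 0.72. None of these medians was tested.

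**Figure D2:**
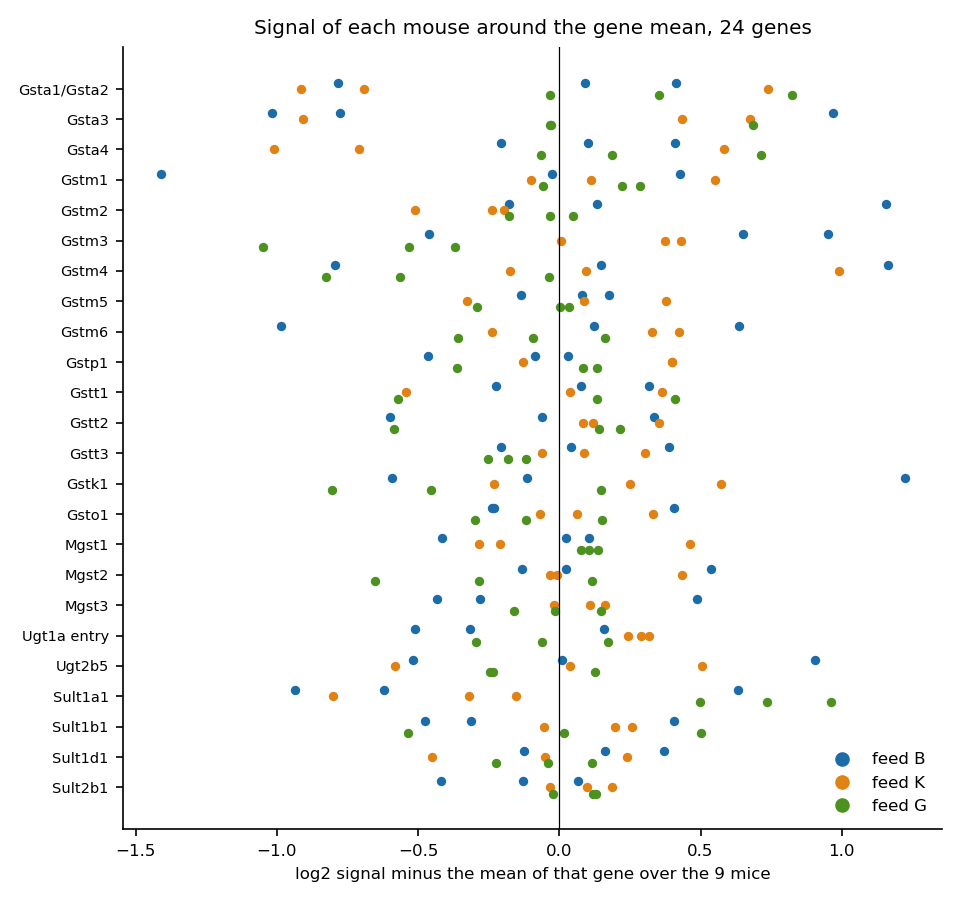
Log2 signal of each mouse minus the mean of that gene over the 9 mice, for the 24 entries detected on at least 8 arrays (rows), coloured by feed. The alpha genes, the mu genes other than Gstm5, Gstk1 and Sult1a1 each span more than 3-fold, and Gstm5, Gstt3, Sult1d1 and Sult2b1 less than 2-fold.

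The alpha class, the GSTs most typical of the absorptive epithelium, spread widely, and the feeds overlapped in all 3 entries. Each entry had its highest mean on feed G, but none had an unadjusted limma F test p below 0.05. The shared probe of Gsta1 and Gsta2 read 13.01, 13.88 and 14.21 in mice 7, 8 and 10 of feed B. It read 12.88, 13.10 and 14.53 in mice 1, 3 and 4 of feed K, and 14.15, 13.76 and 14.62 in mice 4, 8 and 11 of feed G. The lowest and the highest mouse differed 3.33-fold, and the 3 feeds overlapped. Gsta4, which detoxifies 4-hydroxynonenal, read 11.50, 11.81 and 12.12 on feed B, 11.00, 10.70 and 12.29 on feed K and 11.64, 11.89 and 12.42 on feed G, in the same order of mice. Mouse 4 of feed K stood apart from the other K mice in both readings. Gsta3 ranged from 9.03 to 11.02 and had the largest SD, 0.75, of the 22 entries.

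The readings of Gsta1/Gsta2 and of Gsta4 went together over the mice, with Pearson's r of 0.887 (exact permutation p = 0.00143, 9 mice) and Spearman's rho of 0.883 (exact permutation p = 0.00308). In all, 28 pairs within a class were computed, and this pair had an adjusted p of 0.0401 for Pearson's r and of 0.0861 for Spearman's rho. Without the 2 mice farthest from the median of Gsta1/Gsta2, r was 0.927, and with the feed means subtracted it was 0.892. Without mouse 10 of feed B and mouse 11 of feed G, the arrays with the highest Fabp6, r over the other 7 mice was 0.835. Both probes are read on the same arrays, and cross-binding between alpha transcripts was not tested. Gsta3 did not follow as closely, with r of 0.459 to Gsta1/Gsta2 and of 0.150 to Gsta4. Over all 28 pairs the median r was 0.20, and over 203 pairs of members of different classes it was 0.23. The pairs of different classes ran from r of -0.69 to 0.90, so an r this high was not particular to the alpha class. No p-value is given for them.

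**Figure D3:**
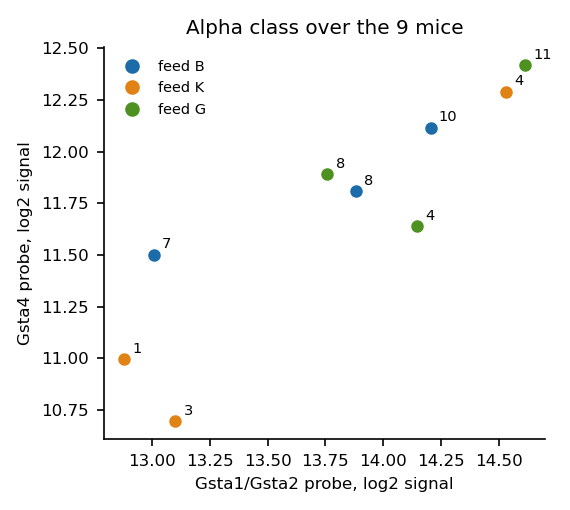
Log2 signal of the Gsta1/Gsta2 probe against that of the Gsta4 probe in the 9 mice, coloured by feed and marked with the mouse number. Mouse 7 of feed B and mice 1 and 3 of feed K are the 3 lowest in both readings, and mouse 4 of feed K and mouse 11 of feed G are the highest.

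In the mu class, which conjugates epoxides and quinones, the genes did not move as a block. Of its 15 pairs, 9 had r above 0, and the pairs ran from r of -0.44 for Gstm1 with Gstm3 to 0.76 for Gstm1 with Gstm6. The latter rested on single mice, since r was 0.133 without the 2 mice farthest from the median of Gstm1. Gstm5 was even, between 10.40 and 11.11 in all mice, with an SD of 0.22. Gstm4 ranged from 7.54 to 9.53, with the highest value in mouse 8 of feed B and an SD of 0.71. Gstm1 read 8.82 in mouse 7 of feed B and between 10.13 and 10.78 in the other mice. Gstm6 has 2 probes, which correlated with r of 0.616 and rho of 0.533 over the 9 mice.

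Gstm2 stood out in mouse 10 of feed B. It read 12.47, 12.78 and 13.80 on feed B, 12.13, 12.45 and 12.41 on feed K and 12.69, 12.61 and 12.47 on feed G. Its 2 probes read 14.05 and 13.55 in mouse 10 of feed B, each the highest of that probe, and correlated with r of 0.902 but rho of 0.60 over the mice.

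Gstk1 had a 4.08-fold range, from 11.85 to 13.88, and its highest reading was the spot of mouse 8 of feed B that did not count as detected. The pi, omega, theta and microsomal entries detected on all 9 arrays spanned less. Gstp1, the pi enzyme of many epithelia, read 15.21 to 15.70 on feed B, 15.55 to 16.07 on feed K and 15.31 to 15.81 on feed G. Gsto1, which reduces dehydroascorbate and arsenicals, lay between 16.34 and 17.04, a 1.63-fold range. The theta genes Gstt1, Gstt2 and Gstt3, which act on small halogenated compounds, had ranges of 1.97-fold, 1.94-fold and 1.56-fold. Mgst1 and Mgst3 spanned 1.84-fold and 1.89-fold, and Mgst2 spanned 2.28-fold. Mgst2 read 15.78 to 16.45 on feed B, 15.88 to 16.35 on feed K and 15.26 to 16.03 on feed G.

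Whether the feeds differed was tested with limma on the genes detected on at least 3 arrays, 26 entries among 9652 genes. None of the 26 passed an adjusted p of 0.05 in the F test over the 3 feeds, and the share of all genes tested was 0%. At an unadjusted p of 0.05 the F test called 2 of 26 (7.69%), beside 5.37% of all genes. They were Gstm3 and Sult1a1, both with an adjusted p of 0.894. The probes of both carry no transcript accession, so their coordinates and promoters below rest on the symbol alone.

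Gstm3, a mu class enzyme at chr3:107963696-107969174, had its lowest mean on feed G. It read 16.40, 16.70 and 15.29 in mice 7, 8 and 10 of feed B, 16.12, 15.75 and 16.18 in mice 1, 3 and 4 of feed K, and 15.38, 15.22 and 14.70 in mice 4, 8 and 11 of feed G. All G mice lay below all K mice, while mouse 10 of feed B lay within the range of feed G. The means were 16.13 ± 0.74, 16.02 ± 0.23 and 15.10 ± 0.35 (SD, n = 3 mice each). The log2 difference was -1.03 ± 0.37 (SE) for G minus B, with an unadjusted limma p of 0.0243 and an adjusted p of 0.802. For G minus K it was -0.92 ± 0.37, with an unadjusted limma p of 0.0388 and an adjusted p of 0.96. An exact permutation test of the F statistic over the mice gave p = 0.132. With the assay-normalized values of the series table, the G minus B difference was -0.71, and with median scaling it was -0.50, and neither had an unadjusted limma p below 0.05. It also missed that threshold without mouse 7 of feed B (-0.89), mouse 8 of feed B (-0.75) or mouse 11 of feed G (-0.84), and without mice 7 and 8 of feed B together it was -0.19. The G minus K difference missed it with the series table (-0.66) and without mouse 1 (-0.87) or 4 (-0.83) of feed K or mouse 8 (-0.97) or 11 (-0.72) of feed G.

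Sult1a1, at chr7:126672865-126690443, sulfates phenols and had its highest mean on feed G. It read 7.10, 7.42 and 8.67 in mice 7, 8 and 10 of feed B, 7.72, 7.89 and 7.24 in mice 1, 3 and 4 of feed K, and 8.78, 9.005 and 8.54 in mice 4, 8 and 11 of feed G. Here too mouse 10 of feed B lay within the range of feed G, and all G mice lay above all K mice. The signal-to-noise ratio was 2.32 to 7.75 on feed B, 4.26 to 6.20 on feed K and 5.12 to 14.3 on feed G, so these were dim spots. The means were 7.73 ± 0.83, 7.62 ± 0.34 and 8.77 ± 0.23 (SD, n = 3 mice each). The log2 difference was 1.16 ± 0.40 (SE) for G minus K, with an unadjusted limma p of 0.0196 and an adjusted p of 0.96. For G minus B it was 1.04 ± 0.40, with an unadjusted limma p of 0.031 and an adjusted p of 0.841. The exact permutation test gave p = 0.118. G minus K missed the unadjusted threshold without mouse 4 of feed K (0.99) or mouse 8 of feed G (1.01), and G minus B without mouse 7 (0.74) or 8 (0.92) of feed B or mouse 4 (1.03) or 8 (0.90) of feed G. Without mice 7 and 8 of feed B together the G minus B difference was 0.10, whereas G minus K was 1.23.

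**Figure D4:**
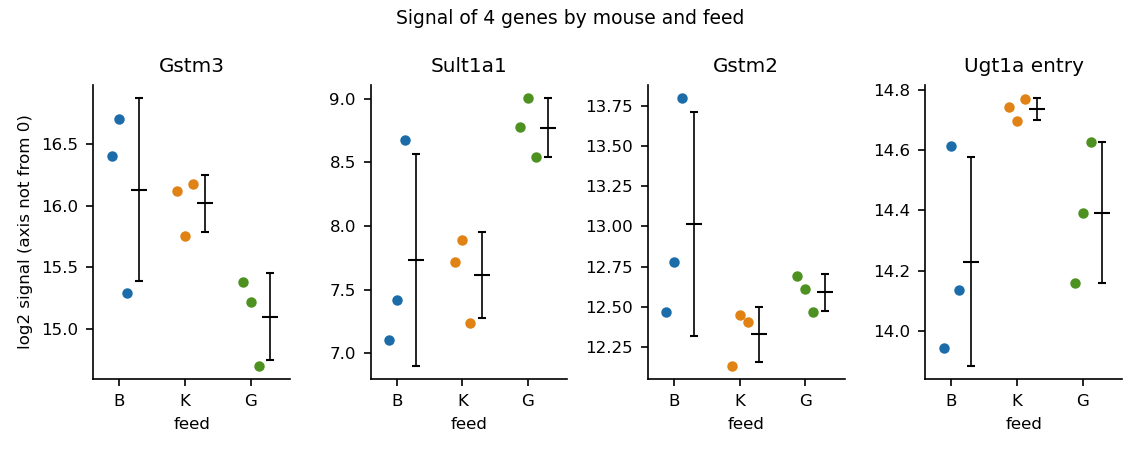
Log2 signal of Gstm3, Sult1a1, Gstm2 and the Ugt1a entry by feed; each point is a mouse, in the order of mouse number, and the black mark and bar are the mean and SD of 3 mice. Each panel has its own axis, which does not start at 0. The G points of Gstm3 lie below and those of Sult1a1 above the K points, and mouse 10 of feed B lies with the G mice in both.

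The 250 bases before the RefSeq starts of these genes are shown because they are the members with the smallest p in the feed test. Capitals mark motifs found on either strand, with N for any base. The motifs were TGACNNNGC (antioxidant response element), GCGTG (aryl hydrocarbon receptor), GTTAAT (HNF1) and AGGTCA (nuclear receptors). Also searched was TTANGTAA, a loose form of the D-box of the clock output factors Dbp, Tef and Hlf.
Sult1a1 promoter, minus strand, chr7:126676419-126676668: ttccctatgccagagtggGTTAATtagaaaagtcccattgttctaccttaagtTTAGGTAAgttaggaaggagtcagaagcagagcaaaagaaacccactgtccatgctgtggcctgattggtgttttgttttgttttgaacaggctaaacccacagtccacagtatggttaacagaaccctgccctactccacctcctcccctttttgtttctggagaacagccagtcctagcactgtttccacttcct
Gstm3 promoter, minus strand, chr3:107969175-107969424: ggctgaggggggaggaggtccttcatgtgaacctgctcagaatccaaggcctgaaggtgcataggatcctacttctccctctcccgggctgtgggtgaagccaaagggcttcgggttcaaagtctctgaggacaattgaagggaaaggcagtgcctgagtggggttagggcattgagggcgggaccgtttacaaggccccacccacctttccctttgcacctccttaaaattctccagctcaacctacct
The promoter table gives 1 start for Sult1a1, which lies inside the annotated span of the gene, so the window is upstream of an internal start and other starts are not shown. The Sult1a1 window holds GTTAAT at -232 to -227 and TTAGGTAA at -197 to -190 from the start, which do not overlap, and the Gstm3 window holds none of the motifs. The loose D-box letters were found for 2 of 37 member genes (5.41%) and for 2.44% of all genes, and a match is not a binding site. Those of the antioxidant response element were found for 3 member genes, Gsta3, Gstm5 and Mgst1 (8.11%, beside 11.5% of all genes), and those of the aryl hydrocarbon receptor for 24.3% of members and 30.9% of all genes. AGGTCA was found for 16.2% and 15.8%.

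The daytime of sampling was not recorded, so the clock genes were examined beside these readings. Of 14 clock genes tested, 10 had an unadjusted F test p below 0.05, beside 5.37% of all genes tested, and none passed the adjusted threshold in limma. The D-box factor Dbp read 9.98 to 12.46 on feed B, 12.69 to 13.57 on feed K and 12.73 to 13.99 on feed G. The part of the daytime in the differences of the members was not tested.

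In the pairs of feeds, limma gave no member an adjusted p below 0.05, and the share of all genes was 0% in each pair. For K minus B, none of the 26 was below an unadjusted limma p of 0.05, beside 4.34% of all genes higher and 1.97% lower on feed K. For G minus B, Sult1a1 was higher and Gstm3 lower (1 of 26 each, 3.85%), beside 3.84% and 1.90% of all genes. For G minus K the same pair of genes was below that threshold in the same directions, beside 2.14% higher and 2.39% lower. The comparisons share their mice, so these counts are not independent. The exact test of 3 mice against 3 cannot give a p below 0.1.

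Readings of a pair of feeds failed to overlap for 3 of 26 members between K and B (9.99% of all genes), for 1 between G and B (11.0%) and for 5 between G and K (13.7%). Those between K and B were Gstm2, Sult1c1 and the Ugt1a entry, and between G and B it was Sult1c1. Sult1c1 was not detected on feed B and entered the test only through feeds K and G, so its separation from feed B follows in part from that filter and is read as no result. Between G and K they were Gstm2, Gstm3, Gstt3, Sult1a1 and the Ugt1a entry. Gstm2 was separate only in the mean of its 2 probes, and each probe alone overlapped in both pairs. The highest K reading of 1 probe was 12.39, beside lowest readings of 12.28 on feed B and 12.38 on feed G. For the other probe these were 12.78, 12.65 and 12.55. The median log2 difference over the 26 members was 0.11 for K minus B, 0.05 for G minus B and -0.10 for G minus K, beside 0.05, 0.06 and -0.01 over all genes tested.

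**Figure D5:**
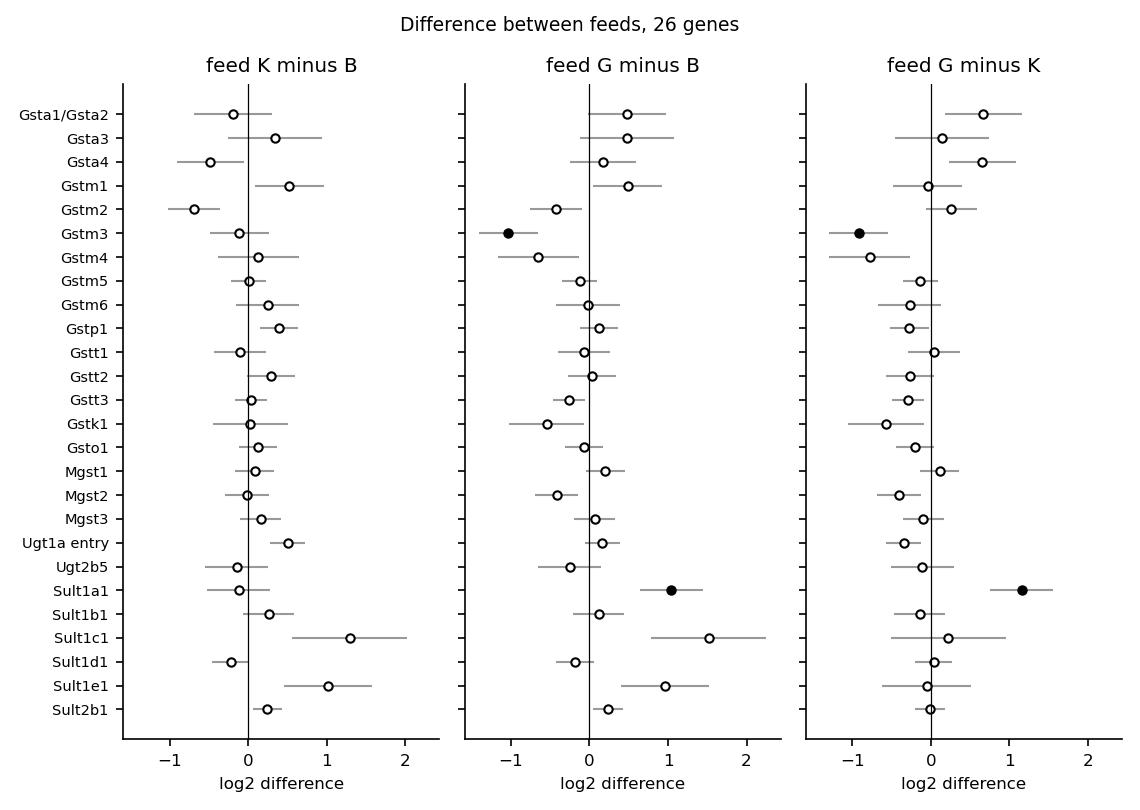
Log2 difference between feeds for the 26 members tested (points), with bars of 1 SE from the limma fit over all 9 mice; filled points have an unadjusted p below 0.05. The filled points are Gstm3 and Sult1a1 in the 2 comparisons with feed G, and the widest bars belong to Sult1c1, which was detected on 3 arrays.

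The Ugt1a entry, which includes the bilirubin enzyme Ugt1a1, was tight on feed K. It read 13.94, 14.61 and 14.14 on feed B, 14.74, 14.70 and 14.77 on feed K and 14.16, 14.39 and 14.63 on feed G. All K mice lay above all others, and the largest difference, K minus B, was 0.51 ± 0.22 (SE), a 1.42-fold difference with an unadjusted limma p of 0.0529 and an adjusted p of 0.787. This difference was below an unadjusted p of 0.05 under several other settings, from 0.51 with a trended prior variance to 0.89 with median scaling, where the median of all genes was 0.41. The enterocyte marker Vil1 also had all K mice above all others, and whether this bears on the Ugt1a entry was not tested. Ugt2b5 ranged from 11.36 to 12.85, and its feeds overlapped.

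Among the sulfotransferases, Sult2b1 was the most even member, with readings between 12.67 and 13.28 and an SD of 0.18. Sult1d1 read 12.45 to 13.27 and Sult1b1 9.01 to 10.05, without a separation of the feeds. Sult1c1 was not detected on feed B, where it read 6.11, 5.95 and 5.15, and read 8.63, 6.27 and 6.18 on feed K and 7.89, 6.11 and 7.75 on feed G. Only 1 array of feed K and 2 of feed G detected it. Sult1e1 was likewise not detected on feed B, where it read 5.06, 5.79 and 6.54, and it read 7.19, 7.58 and 5.68 on feed K and 7.36, 6.58 and 6.34 on feed G. Both genes passed the filter only through feeds K and G, and the readings that were not detected have no order, so no fold against feed B is given.

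The genes around conjugation are given by list, beside 5.37% of all genes tested with an unadjusted limma F test p below 0.05. In the list of cofactor supply (UDP-glucuronic acid, PAPS and glutathione), 11 of 12 genes with a probe were tested, and only Bpnt1, which breaks down the by-product of sulfation, had an unadjusted F test p below 0.05 (0.0387 in limma). It read 12.30 ± 0.49 on feed B, 13.16 ± 0.31 on feed K and 12.28 ± 0.38 on feed G (SD, n = 3 mice each). In the list of other conjugation and hydrolysis enzymes 1 of 11 was below that threshold, Ggt1, which splits glutathione conjugates, with 13.71 ± 0.20, 14.27 ± 0.18 and 14.12 ± 0.06 on feeds B, K and G. Among the efflux transporters 1 of 5 was, the xenobiotic and conjugate exporter Abcg2, with 12.98 ± 0.01, 12.36 ± 0.04 and 12.33 ± 0.26. Of 13 sensors and regulators tested none was. The aryl hydrocarbon receptor Ahr was not detected on any array, whereas Nfe2l2, Nr1i2, Nr1i3 and Rxra were detected on all 9. No gene of these lists passed the adjusted threshold in limma.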

How the data were processed

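The authors deposited, for each of the 9 arrays, the scanner table with the signal intensity of each spot, its SD, a signal-to-noise ratio score and a quality flag, and a series table of intensity values, in which 297108 of 297108 equal the arrays' assay-normalized column. The submitters' notes name RMA. Here, flags above 5000 led to the removal of 432 to 1045 spots per array. The signals of 33012 probes were then quantile normalized and put on the log2 scale, and entries with several probes took their mean. Genes detected (signal-to-noise ratio of at least 3) on at least 3 arrays entered a limma 3.58.1 fit under R 4.3.3 (lmFit and eBayes over all 9 arrays, 1 mean per feed), with Benjamini-Hochberg adjustment over all 9652 genes; differences are on the log2 scale. The fits were tested on simulated data. Exact permutation tests are two-sided and used scipy 1.17.1 and numpy 2.4.6 in Python 3.11.15. Names, coordinates and promoters are from RefSeq tables of GRCm38.p6. Of the 36 member probes, 31 matched by accession and 5 by symbol. The latter were those of Gstm3, Gsto1, Gstp2, Gstz1 and Sult1a1. Gsta4, Gstt2, Sult4a1 and Ugt1a6b had no promoter entry.

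The members, gene lists and tests were chosen with earlier results of these data known. Members named are the 10 with the smallest F test p, the 6 largest and 6 smallest SDs, those with separate feeds, those with several probes and the usual intestinal members. The alternatives tried were the series table, median scaling, failed spots kept, the brightest probe, spots with a ratio below 1 left out, a floor at percentile 5, other filters, array weights, a trended prior, and leaving out each mouse. Leaving out pairs of mice, the correlations within classes and the genes under older symbols were added after seeing the data. The files do not say what the assay normalization divides by.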

Additional observations from a re-analysis of the deposited data

Results flagged for a closer look

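Gstm1 in mouse 7 of feed B lay far below the other 8 mice, with a gap to its nearest neighbour of 0.668 of the whole range. Gstm2 in mouse 10 of feed B lay far above the others, with a gap of 0.613 of the range. These were 2 of the 22 members detected on all 9 arrays; the limit for naming a mouse here is one that chance passes in about 1 of 20 groups.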

How the results depend on the processing

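With 9 arrays, only large differences could be found. No member passed the adjusted F test under any setting that was run, and the members detected on at least 5 arrays stayed at 24 with a ratio of 5, with failed spots kept and with the brightest probe. The median SD of the members lay between 0.32 and 0.48. The 2 members below an unadjusted F test p of 0.05 became 3 with median scaling (Sult1a1, Sult2b1 and the Ugt1a entry, without Gstm3, beside 11.1% of all genes), 1 with the series table, with no filter on dim genes, with genes detected on all 9 arrays and with a trended prior, and 0 by the exact permutation test; leaving out 1 mouse gave 0 to 2, with 1 without mouse 8 of feed B or mouse 3 of feed K and 0 without mouse 1 of feed K or mouse 4, 8 or 11 of feed G. For K minus B the count of 0 became 1 with the series table and with spots below a ratio of 1 left out, and 2 with median scaling, with genes detected on all 9 arrays, with array weights and with a trended prior, beside 6.31%, 10.2%, 12.7%, 5.98%, 7.69% and 6.33% of all genes in this order; leaving out 1 mouse gave 0 to 2. For G minus B the count of 2 became 3 with median scaling (18.6% of all genes) and with spots below a ratio of 1 left out (13.3%), 1 with the series table and with genes detected on all 9 arrays, and 0 to 3 without 1 mouse; for G minus K the series table and genes detected on all 9 arrays gave 1, array weights 3 (10.5% of all genes), and leaving out 1 mouse 0 to 2. Without mice 7 and 8 of feed B the counts were 2 for K minus B and 1 for G minus B (5.70% and 5.89% of all genes); without mouse 10 of feed B and mouse 11 of feed G the count for G minus B was 4 of 25, beside 9.16% of all genes.

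Median scaling moved the median of all genes to 0.41 for K minus B, 0.53 for G minus B and 0.11 for G minus K, and the share of all genes below an unadjusted p of 0.05 that were higher from 68.8%, 67.0% and 47.3% to 95.4%, 97.2% and 65.7% (78.5%, 80.9% and 57.1% with the series table). Of the differences that changed sign, none had an unadjusted p below 0.05. With median scaling they were Gstm5 (0.0070) and Gsto1 (0.0379) for G minus K, Gstt1 (0.30) and Sult1d1 (0.21) for K minus B, and Mgst2 (0.11) and Ugt2b5 (0.30) for G minus B, each less positive than the median of all genes. With the series table they were Gstm5 (0.0501), Gstt1 (0.18) and Ugt2b5 (0.0885), with spots below a ratio of 1 left out Gstt1 (0.16) and Ugt2b5 (0.00398), and with array weights Gstt1 (0.0397). Leaving out 1 mouse changed the sign of Gstm1 (-0.0114 to 0.911), Gstm5 (-0.317 to 0.0344), Gstt1 (-0.308 to 0.145), Mgst3 (-0.0225 to 0.441) and Ugt2b5 (-0.575 to 0.134). The cause was not tested. No paired analysis was possible because the groups share at most 1 mouse number. The slide or scan as a block was not run, since no such batch held over 1 array.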

Other observations

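The arrays also carry 12 probes of 10 further genes of these families under older symbols, which the rule by symbol does not take. Of these, Ugt2a3, Ugt2b34, Ugt2b35, Ugt2b38 and Sult2a2 were detected on all 9 arrays, and Gstp3 on 5. Ugt2b34, a glucuronosyltransferase of the chromosome 5 cluster, read between 14.30 and 15.08 over the 9 mice (SD 0.25), and Ugt2b35 between 9.92 and 11.17 (SD 0.38). Ugt2a3 read between 11.91 and 13.28 (SD 0.45), Ugt2b38 between 8.79 and 10.51 (SD 0.50) and Sult2a2 between 8.65 and 9.59 (SD 0.34). Gsto2 and Sult2a8 were detected on 1 array each, and Ugt2b1 and Gstt4 on none. The 6 genes that could be tested had unadjusted limma F test p-values between 0.42 and 0.99, and none passed the adjusted threshold.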
